A study of Hordeum vulgare with 12 samples.

Results

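The regions described here are stretches of the barley genome of 30 kb or more where the control libraries of a VRS5 binding experiment held many reads and where no protein-coding gene is annotated. They were chosen by width and by gene content. A greenscreen region entered if it lay on chromosomes 1H to 7H, was at least 30000 bp wide, and shared no base with the span of a protein-coding gene in the RefSeq annotation of MorexV3. There were 1300 such regions, which were 71.3% of the 1823 greenscreen regions of that width and 6.23% of the 20855 greenscreen regions on the 7 chromosomes. The full list held 20939 regions, with 84 of them outside the assembled chromosomes. Of those 84, 17 were wide enough but were left out by the rule. The width and the absence of protein-coding genes were thus set by the choice and are given below only as a description.

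In the experiment, DNA affinity purification sequencing (DAP-seq) was used to find DNA bound by VRS5 (HvTB1), a TCP transcription factor that acts in barley spike architecture and tillering. VRS5-FLAG served as bait in 6 of the 12 libraries. The other 6 used GFP-FLAG, a protein that is not a DNA-binding factor and so serves as the control. Both baits carried a C-terminal 3xFLAG tag and were made in vitro in a wheat germ system, and the VRS5 coding sequence came from cultivar Bowman. The genomic DNA came from developing inflorescences of cultivar Morex, taken at Waddington stage 4, which was 4 weeks after sowing, and each replicate used 100 mg. The DNA was purified and fragmented, so that chromatin was not part of the assay. Libraries were pooled by bait before the lists were made, so that every value below is 1 value per region, with no replicate error and no test between libraries. Intervals given are 95% intervals for counting only, and they treat regions and peaks as independent.

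A greenscreen is a mask made from control libraries. It marks places where reads pile up whatever the bait, so that peaks there can be set aside before binding is read. Such pile-ups are known from sequence that is present in more copies than the assembly holds, as in satellite repeats around centromeres and at chromosome ends, and in the tandem arrays that encode ribosomal RNA. Centromeres are the attachment sites of the spindle, and in barley they lie inside broad pericentromeric blocks that are poor in genes. The nucleolar organisers of barley, where ribosomal RNA genes stand in long tandem arrays, are known on chromosomes 5H and 6H.

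The long gene-free regions covered 53.6 Mb, which was 1.28% of the 4.20 Gb of the 7 chromosomes and 19.7% of all greenscreen length there. Their median width was 36915 bp, with quartiles of 32800 and 45164 bp, and the widest reached 132886 bp. The 523 regions of the same width that touched a protein-coding gene covered 22.8 Mb, with a median width of 38362 bp. The 16871 shorter gene-free regions covered 166 Mb, with a median width of 8759 bp. The members thus made up a larger part of the masked length than of the region count.

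The width of a region depends on how neighbouring stretches were joined. No pair of neighbouring regions on a chromosome was closer than 20001 bp. In width classes of 1 kb the number of regions dropped from 676 between 19 and 20 kb to 313 between 20 and 21 kb, and among regions that touched no protein-coding gene it dropped from 555 to 262. At the 30 kb limit no such step was seen, with 148 regions between 29 and 30 kb and 151 between 30 and 31 kb. The list does not give how much of a region's length was itself above the authors' threshold, so a width is the distance between the outer edges and not a measured length of high coverage.

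**Figure D1:**
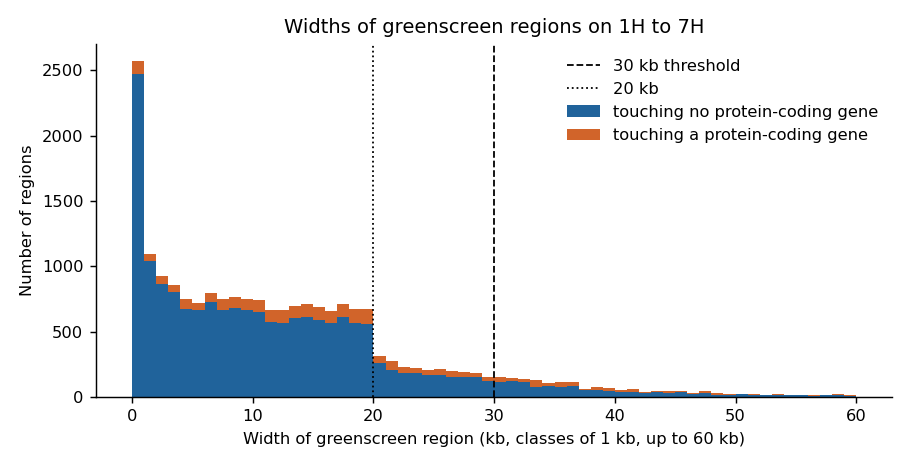
Number of greenscreen regions on 1H to 7H in width classes of 1 kb up to 60 kb (horizontal axis in kb), split into regions that touch no protein-coding gene and regions that touch at least 1. The count drops from 676 to 313 at 20 kb (dotted line) and runs on from 148 to 151 across the 30 kb threshold (dashed line).

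The narrowest member lay on 3H from 85898237 to 85928236, was 30000 bp wide and had a fold enrichment of 5.28. The widest gene-free region that missed the limit lay on 6H from 93472816 to 93502807, was 29992 bp wide and had a fold enrichment of 4.62. The 59 members between 30 and 30.5 kb had a median fold enrichment of 4.73 (range 4.48 to 11.5). The 55 gene-free regions between 29.5 and 30 kb had a median of 4.67 (range 4.51 to 11.9). The signal on both sides of the limit spanned nearly the same range.

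The signal of a region is its fold enrichment, a linear ratio that the authors' peak caller gave for GFP-FLAG coverage over background. Because the lists are pooled, it is a property of all 6 control libraries together. In the 1147 members below 6-fold, a background worked back from the fold enrichment and the -log10 p lay between 6.36 and 6.68, with a median of 6.37. The lowest fold enrichment in the whole list, 4.48, then stood for a pileup of 32.0 fragments, and it was shared by 933 regions, 11 of them members. No pileup is given for members at 6-fold or more, because the background was worked back only below 6-fold.

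Most long gene-free regions lay just above this lower limit. Their median fold enrichment was 4.74, or a pileup of 33.9, with quartiles of 4.64 and 4.92. A fold enrichment under 5 was listed for 1018 of them, or 78.3%, against 83.0% of all regions on the 7 chromosomes. The share was 77.1% in long regions that touched a protein-coding gene and 83.3% in shorter gene-free regions. Values just above the limit were thus common to the whole list. The median was 4.75 in the long regions that touched a protein-coding gene and 4.69 in the shorter gene-free regions. The -log10 q of the members had a median of 11.3 and ran from 10 to 5739. Over all regions on the 7 chromosomes the median was 4.69, with quartiles of 4.59 and 4.87, so that the members lay slightly higher at each of these points. Across the members the Spearman correlation between width and fold enrichment was 0.125, given as a description over 1300 regions that share their libraries.

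A minority stood far above the rest. A fold enrichment of 10 or more was listed for 91 members, or 7.0% (5.74 to 8.52), against 4.82% of all regions on the 7 chromosomes. The share was 5.16% (3.57 to 7.41) in long regions that touched a protein-coding gene and 4.77% (4.45 to 5.10) in shorter gene-free regions. Beyond 100-fold there were 5 members, out of 89 regions in the whole list on 1H to 7H. How the fold enrichment of a region joined from several stretches was formed is not stated in the sources used here. The part of joining in the relation between width and signal was therefore not tested. The share at 10-fold or more rose with width class among the members, although not at every step. It was 4.98% for the 803 members of 30 to 40 kb, 10.6% for the 282 of 40 to 50 kb, 7.73% for the 181 of 50 to 75 kb and 17.4% for the 23 of 75 to 100 kb. Among the 11 members over 100 kb it was 27.3%, with a wide interval of 9.75 to 56.6. At the other end of the list, gene-free regions under 2 kb also had a high share, 9.74% of 3513.

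**Figure D2:**
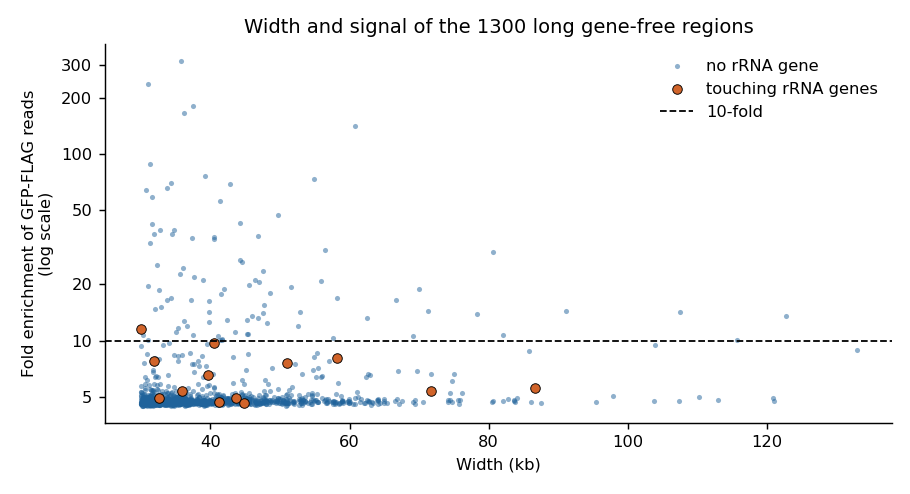
Fold enrichment of each of the 1300 long gene-free regions (vertical axis, log scale) against its width in kb (horizontal axis), with the 13 members that touch rRNA genes in orange. Most points lie just above the lowest value of 4.48, 91 reach 10-fold (dashed line), 1 of them with rRNA genes, and the widest region of 132886 bp is at 8.90-fold.

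The 10 members with the highest fold enrichment were of ordinary width. The first lay on 4H from 405394649 to 405430406, was 35.8 kb wide, and stood at 315-fold with a -log10 q of 5739. Its nearest protein-coding gene, LOC123446518, was 362 kb away. The second lay at the tip of 6H, from 767 to 31779, at 236-fold, and its nearest VRS5 peak was 325 kb away. Neither of these regions touched an annotated gene of any class.

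Next came a region on 3H from 223186357 to 223223909 at 181-fold, and another on 2H from 129589202 to 129625359 at 166-fold. On 1H, from 301581754 to 301642526, a region of 60.8 kb reached 141-fold and lay 15.1 kb from LOC123432249. Below 100-fold, a region on 7H from 435417472 to 435448774 reached 88.0-fold. That 7H region was the only 1 of the 10 with a VRS5 peak within 1 kb, at 0.523 kb from its edge. On 5H, a region from 215819360 to 215858518 reached 75.9-fold.

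The last 3 of the 10 lay near the gene-poorest part of their chromosomes. On 4H, the region from 284675021 to 284729847 was at 73.2-fold, and the region from 276130369 to 276164727 at 69.7-fold. The latter lay 1771 kb from LOC123448513, the longest distance to a protein-coding gene of any member. On 3H, the region from 264830938 to 264873785 was at 69.2-fold, lay 1026 kb from LOC123441679, and touched a pseudogene of 38837 bp, LOC123439862. That pseudogene was the only annotated gene among the 10, so that 9 of them touched no gene of any class. This is common in the whole set, since 6.85% of all members touched an annotated gene.

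The 10 widest members were a different set, since no region was in both lists. The widest lay on 7H from 300989229 to 301122114, at 8.90-fold, with LOC123408789 at 97.9 kb as its nearest protein-coding gene. It was followed by a region of 122721 bp on 6H from 305346031 to 305468751 at 13.5-fold, and by a region of 120987 bp on 6H from 244692974 to 244813960 at 4.74-fold. A region of 120925 bp on 1H, from 195022132 to 195143056, was at 4.95-fold and lay 325 kb from LOC123428588. Similar widths thus went with signals from near the lower limit to 13.5-fold.

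Of the remaining 6, the region on 7H from 632323605 to 632439232 (115628 bp, 10.03-fold) lay 0.101 Mb from the last listed coordinate of the chromosome, and the nearest VRS5 peak was 291 kb away. On 4H, 3 regions were among the widest. The first, from 18156707 to 18264137, had the highest fold enrichment of the 10, at 14.2. The others, from 304072754 to 304180066 and from 196678206 to 196782113, were at 4.77-fold and 9.51-fold. The other two touched long noncoding RNA genes and no other gene. On 1H, the region from 178100693 to 178213615 (4.80-fold) touched LOC123428177. On 6H, the region from 22003964 to 22114213 (4.96-fold) touched LOC123403654 and lay only 0.979 kb from the protein-coding gene LOC123403872. Together the 10 widest members covered 1.15 Mb, 3 of them reached 10-fold, and 8 touched no gene of any class. Of all members, 7.0% reached 10-fold and 6.85% touched an annotated gene.

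The long gene-free regions lay on all 7 chromosomes. Their density was lowest on 1H, with 136 regions or 0.263 per Mb (0.221 to 0.311), and highest on 4H, with 229 regions or 0.375 per Mb (0.328 to 0.427). Between them stood 7H with 178 regions (0.281 per Mb), 2H with 189 (0.284), 5H with 175 (0.298), 3H with 200 (0.322) and 6H with 193 (0.344). The intervals of 1H and 4H did not overlap, whereas neighbours in this order did not differ beyond their intervals. The covered share of the chromosome followed nearly the same order, from 1.13% on 1H and 2H to 1.55% on 4H (9.46 Mb). The median fold enrichment was alike on all of them, at 4.72 to 4.76, and members of 10-fold or more numbered between 8 on 5H and 20 on 4H.

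**Figure D3:**
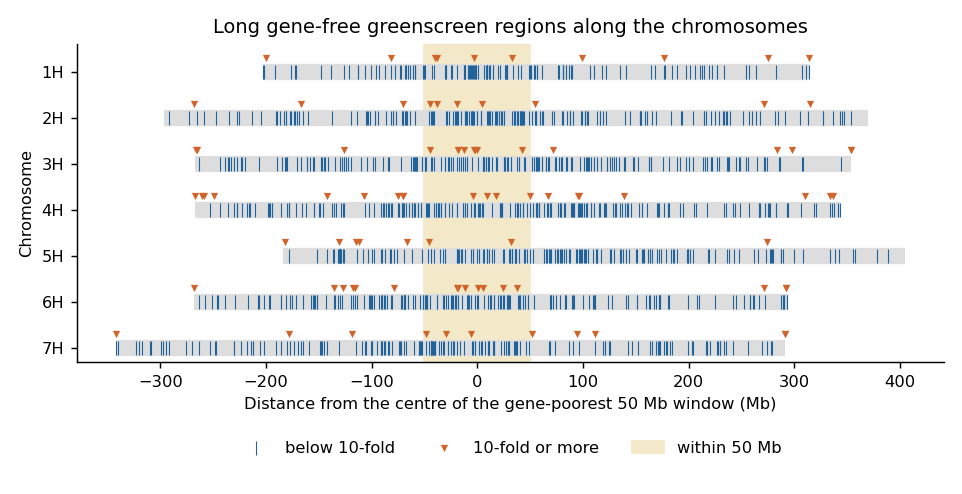
Long gene-free regions along 1H to 7H (1 row per chromosome) by distance in Mb from the centre of the gene-poorest window of 50 Mb, with ticks for members below 10-fold, triangles for the 91 of 10-fold or more and shading for the 50 Mb on either side. Members occur along every chromosome, and 394 of the 1300 lie in the shaded space.

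Within chromosomes they were unevenly spread. The median distance between the starts of neighbouring members was 1.88 Mb. The 417 full bins of 10 Mb held a median of 3 members, 39 bins held none and 19 held 8 or more. The fullest bin, from 330000001 to 340000000 on 2H, held 13 members that covered 0.458 Mb, or 4.58% of it. Bins with 12 members lay from 190000001 to 200000000 on 1H (5.59% covered) and from 50000001 to 60000000 on 5H (5.0%). A bin with 11 members, from 190000001 to 200000000 on 4H, had the highest covered share of these 4, at 5.75%. In the order of all greenscreen regions along a chromosome, 1084 members had no other member next to them, 192 stood in 96 adjacent pairs and 24 in 8 runs of 3. Members made up 6.23% of these regions, so that neighbours mostly of other kinds follow from that share. Whether members stood together more often than their share gives was not tested.

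The position of the centromere is not part of the files, so distances were measured to a stand-in, the centre of the 50 Mb window of each chromosome with the fewest protein-coding genes. These centres lay at 202.5 Mb on 1H, 296 Mb on 2H, 267.5 Mb on 3H, 267 Mb on 4H, 183.5 Mb on 5H, 268 Mb on 6H and 341.5 Mb on 7H, and the windows held 59 to 81 protein-coding genes each. Because both this stand-in and the choice of members rest on the same genes, a gene-free region had more room near the centre, and the values for all long regions are given beside those of the members.

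Density fell from each class to the next with distance from the gene-poorest centre. It was 0.629 members per Mb (0.504 to 0.774) within 10 Mb, 0.557 between 10 and 25 Mb and 0.540 between 25 and 50 Mb. It was 0.409 between 50 and 100 Mb, 0.269 between 100 and 150 Mb, 0.238 between 150 and 200 Mb, 0.206 between 200 and 250 Mb and 0.179 (0.151 to 0.211) beyond 250 Mb. The intervals of the first and the last class were far apart. For all regions of 30 kb or more, whatever genes they touched, the density was 0.750 per Mb within 10 Mb, 0.324 between 200 and 250 Mb and 0.391 beyond 250 Mb. The density of greenscreen regions of every width fell less, from 6.26 per Mb within 10 Mb to 4.62 beyond 250 Mb. Protein-coding genes ran the other way, from 1.5 to 17.6 per Mb over the same classes. The share of the chromosome covered by members was 2.72% within 10 Mb and 0.737% beyond 250 Mb. These classes do not separate the chromosome ends, where members stood at 1.07 per Mb (0.600 to 1.77) within 1 Mb of an end.

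**Figure D4:**
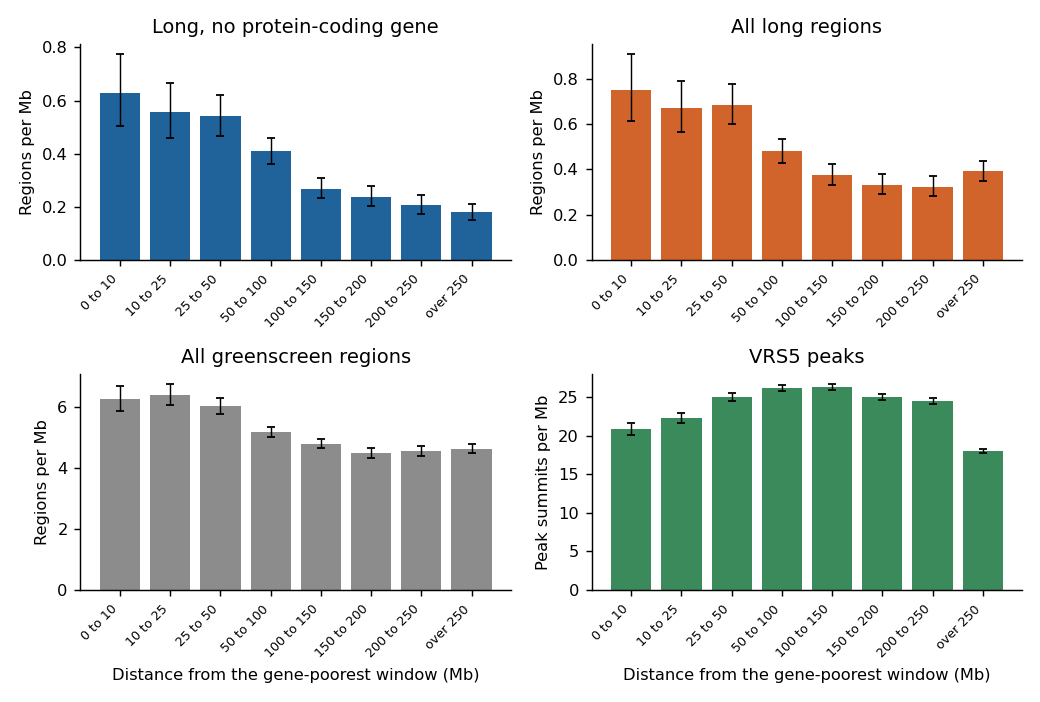
Density per Mb (vertical axes) of long gene-free regions, all long regions, all greenscreen regions and VRS5 peaks in classes of distance in Mb from the gene-poorest centre (horizontal axes), as bars with 95% Poisson intervals. Long gene-free regions fall from 0.629 per Mb within 10 Mb to 0.179 beyond 250 Mb, while VRS5 peaks are at 20.9 and 18.0 per Mb in these classes and at 26.3 between 100 and 150 Mb.

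Counted over the 50 Mb on either side of that centre, 394 members, or 30.3% (27.9 to 32.9), lay near it, against 20.7% of all greenscreen regions and 16.7% of the chromosome length. For all 1823 regions of 30 kb or more the share was 26.7%. The share was 21.5% (20.9 to 22.1) in the 16871 shorter gene-free regions and 17.6% in the 523 long regions that touched a protein-coding gene. Of the protein-coding genes, 4.09% lay in the same space. The intervals of members and shorter gene-free regions did not overlap. A gene-free stretch of 30 kb needs more room between genes than a shorter one, and the part of this in the difference was not tested. Among gene-free regions the share was higher in wider classes, except across the 30 kb limit. It was 17.6% below 2 kb, 22.8% at 10 to 20 kb, 26.9% at 20 to 30 kb, 26.3% at 30 to 40 kb, 35.8% at 40 to 50 kb, 35.9% at 50 to 75 kb, 43.5% at 75 to 100 kb and 63.6% of the 11 regions over 100 kb. By chromosome the members' share ran from 23.6% on 4H to 37.5% on 1H.

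High signal was found at the far end of this distance scale as well. Of the members, 11.4% reached 10-fold within 10 Mb of the centre, 1.61% between 200 and 250 Mb, and 17.2% (12 to 24.2) beyond 250 Mb. For the other greenscreen regions the shares were 5.08%, 4.74% and 5.94% in the same classes, so that members stood above them in the first and last class. Members also stood above them in each class between 10 and 150 Mb, at 5.59 to 7.69% against 3.92 to 4.51%. Between 150 and 200 Mb members stood below, at 2.45% against 4.34%. In each class from 25 to 200 Mb the interval of the members' share included that of the other regions. Between 200 and 250 Mb, 2 members reached 10-fold, and the interval of the members' share, 0.443 to 5.69, included that of the other regions. The last class held 25 of the 91 members of 10-fold or more. Chromosome ends stood out in the same way, in part through the same regions. All 8 members of 10-fold or more within 1 Mb of an end also lay beyond 250 Mb from the centre. Within 20 Mb of an end there were 53 members, 19 of which (35.8%, 24.3 to 49.3) reached 10-fold. In the same 20 Mb the share was 11.1% for shorter gene-free regions and 11.0% for all regions. Within 1 Mb of an end it was 8 of 15 members (53.3%, 30.1 to 75.2), with a median fold enrichment of 10.03, against 25% of all 76 regions there. The density of members was 1.07 per Mb (0.600 to 1.77) within 1 Mb of an end, 0.3 per Mb within 10 Mb and 0.189 per Mb within 20 Mb. For all regions it was 5.43, 4.56 and 4.36 per Mb.

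The 15 members within 1 Mb of an end were as follows. At the starts of chromosomes, the 236-fold region described above began at base 767 of 6H, and a region on 4H from 4515 to 49123 was at 26.3-fold. On 7H, regions from 1016 to 48624 and from 70834 to 102876 were at 14.1-fold and 8.02-fold, and on 1H, regions from 4074 to 41449 and from 298453 to 373108 were at 7.54-fold and 6.08-fold. Each of these lay above 6-fold.

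At the other ends, a region on 1H from 516437055 to 516503681 (66.6 kb, 16.6-fold) ran to the last listed coordinate, and its neighbour from 516162088 to 516215678 was at 4.77-fold. On 3H, regions from 621351042 to 621395291 and from 621185771 to 621226920 were at 27.2-fold and 10.6-fold. On 7H, a region from 632180958 to 632213666 was at 39.3-fold, beside the 115628 bp region at 10.03-fold. High and low values thus stood side by side. On 4H, a region from 609724817 to 609765774 was at 4.75-fold, and on 6H, regions from 561279595 to 561335464 and from 561009717 to 561043998 were at 6.42-fold and 4.62-fold. Chromosomes 2H and 5H had no member within 1 Mb of an end.

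No member touches a protein-coding gene by definition, but other classes of gene could be touched. At least 1 annotated gene of another class was touched by 89 members, or 6.85%, against 4.09% of all regions on the 7 chromosomes. For ribosomal RNA (rRNA) genes, transfer RNA (tRNA) genes and pseudogenes together the count was 58 members, or 4.46% (3.47 to 5.72), against 2.82%. A wide region has more room to touch a gene than a narrow one, so genes per Mb are given beside the shares. A gene counted in full if 1 base was shared, which raises genes per Mb in narrower regions. All regions also include those that touch a protein-coding gene. Per Mb, members held 5.36 genes of any other class, all regions 4.37 and the chromosomes 4.66. For rRNA genes, tRNA genes and pseudogenes together the values were 4.41, 3.13 and 3.58. Both sets of values were carried by rRNA genes, which made up 168 of the 287 genes in members and lay in 13 members. Pseudogenes and tRNA, long noncoding RNA and small nuclear RNA genes were each fewer per Mb in members than in all regions or on the chromosomes. Only rRNA and small nucleolar RNA genes were more.

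Ribosomal RNA genes, which encode the RNA core of the ribosome, were touched by 13 members, or 1.0% (0.585 to 1.70), against 0.153% of all regions, that is 32 regions. These 13 members held 168 of the 236 rRNA genes that any region touched, out of 8416 annotated on 1H to 7H. Per Mb the members held 3.14 rRNA genes, all regions 0.867 and the chromosomes 2.01. Among long regions that touched a protein-coding gene, 1 also touched an rRNA gene.

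The 13 members lay in 6 of 15 clusters of rRNA genes, where a cluster is a set of genes each within 1 Mb of the next. Of these, 7 lay in the cluster on 5H from 52599279 to 53827601, 1228 kb long with 332 rRNA genes. In order along the chromosome they ran from 52972043 to 53002047 (11.5-fold, 8 rRNA genes), from 53105425 to 53177093 (5.36-fold, 22 genes) and from 53223910 to 53259842 (5.37-fold, 12 genes). Then came 53385327 to 53428945 (4.95-fold, 15 genes), 53482816 to 53541054 (8.04-fold, 18 genes), 53568292 to 53619329 (7.58-fold, 13 genes) and 53701265 to 53733913 (4.93-fold, 5 genes). Together they were 323 kb long and held 93 of the genes of the cluster. With the shorter regions, 15 regions covered 33.9% of the cluster and touched 121 genes, so most of its genes lay between regions. The list of VRS5 peaks had 8 summits in this cluster.

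On 6H, the cluster from 81926130 to 82436826 was 511 kb long with 154 rRNA genes. It had 2 members, from 82330210 to 82369908 at 6.50-fold and from 82398915 to 82439469 at 9.69-fold, each with 12 rRNA genes. All regions together covered 21.6% of this cluster, and 10 VRS5 summits lay in it. The members of the 5H and 6H clusters thus had fold enrichments of 4.93 to 11.5, all above the median of the members at 4.74 and far below the highest values of the set.

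The remaining 4 members lay in smaller or denser clusters. On 7H, a cluster from 250126468 to 250838053 held 924 genes with a median annotated length of 119 bp. Its member, from 250677945 to 250722772, held 28 of them, the highest number in any member, at 4.65-fold, and regions covered 6.30% of that cluster. It also touched 7 pseudogenes, the most of any member. Also on 7H, the cluster from 199361828 to 199522233 had 33 genes, 8 of them in a member of 7.82-fold. On 2H, the member from 158753994 to 158840649 (86.7 kb, 5.54-fold) held 9 of the 11 genes of its cluster and 4 pseudogenes. On 5H, the member from 121877028 to 121918330 (4.71-fold) held 6 of 11.

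The cluster with the most rRNA genes of all was nearly untouched. It lay on 2H from 575556774 to 577944210, was 2387 kb long and had 6563 annotated genes, of which 1 was touched by a greenscreen region and 0 by a member. In all, 3 regions covered 77.2 kb, or 3.24%, of its span. A member did lie inside its span, from 577741993 to 577817049, with a width of 75.1 kb, at 6.59-fold. It touched no rRNA gene, and the nearest ones stood 0.645 kb before it and 5.13 kb after it. This region was singled out after its values were seen. On 1H, a cluster of 128 genes from 132089288 to 132775825 had 7 shorter regions that touched 21 of them, and no member.

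The clusters differed in the annotated lengths of their rRNA genes, with a median of 1811 bp in the 5H cluster near its 7 members and in the 6H cluster, and 119 bp in the large clusters of 2H and 7H. Genes of 114 to 123 bp made up most of the annotation, 7752 genes, and 33 of them (0.426%) lay in members. Of the 232 genes of 156 bp, 46 (19.8%) lay in members. The values were 44 of 216 (20.4%) for genes of 1784 to 1817 bp and 45 of 216 (20.8%) for genes of 3223 to 3435 bp. The 3 longer classes were thus present in close to equal numbers and shares. Genes of these classes follow one another within the clusters, so their counts are not separate observations. The shortest class was rarely inside a member, and 6563 of its genes lay in the large cluster of 2H.

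Pseudogenes, copies of genes that have lost their coding function, were touched by 48 members, or 3.69% (2.80 to 4.86), against 2.46% of all regions. Per Mb there were 1.21 pseudogenes in members, 2.02 in all regions and 1.34 on the chromosomes. The part of region width and of regions with protein-coding genes in the value for all regions was not tested. The members held 65 pseudogenes, of which 2 were annotated as transcribed, and 8 members held 2 or more. Among long regions that touched a protein-coding gene, 12.6% touched a pseudogene. In 6 members an rRNA gene and a pseudogene occurred together.

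The highest fold enrichment among members with a pseudogene was the 69.2 of the 3H region above. It was followed by 42.1 on 6H from 248403218 to 248434823, with LOC123405952 and LOC123405984, and by 30.6 on 4H from 6976977 to 7033475, with LOC123450160. A region on 3H from 254809219 to 254856768, with LOC123440147, had 23.5, and a region on 7H from 312101456 to 312132510, with LOC123412598 and the long noncoding RNA gene LOC123407900, had 19.5. What these pseudogenes derive from is not given by symbols of this kind.

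Transfer RNA genes, which encode the adaptors of translation, were touched by 3 members, or 0.231%, against 0.273% of all regions. Each held a single tRNA gene. TRNAS-UGA lay in a region on 1H from 109338534 to 109375411 (4.74-fold), which also touched the long noncoding RNA gene LOC123407813. TRNAS-GGA lay on 2H in a region from 209694805 to 209726950 (4.67-fold), and TRNAW-CCA on 2H in a region from 511941726 to 511977130 (4.85-fold). Per Mb, members held 0.0560 tRNA genes, all regions 0.243 and the chromosomes 0.234. These 3 members had ordinary signal, and tRNA genes were scarcer in members than along the chromosomes as a whole. The chromosomes include sequence dense in genes, and the part of the choice of members in this difference was not tested.

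Long noncoding RNA genes were touched by 30 members, or 2.31%, against 1.24% of all regions, and their number per Mb was 0.616 in members, 1.02 in all regions and 0.820 on the chromosomes. Small nucleolar RNA (snoRNA) genes, whose products guide the modification of other RNAs, were touched by 4 members, or 0.308%, against 0.0911%. Per Mb, members held 0.317 snoRNA genes, all regions 0.176 and the chromosomes 0.223. The members held 17 snoRNA genes, 14 of them in 1 region on 6H from 38647314 to 38692712 (45.4 kb, 4.77-fold) that also held 4 pseudogenes. The other 3 were LOC123423709 on 1H, LOC123445820 on 3H and LOC123414439 on 7H, each 139 bp long. A small nuclear RNA (snRNA) gene, of the class that serves in splicing, was touched by 1 member, or 0.0769%, against 0.0671%. It was LOC123406445, in the region on 6H from 92654516 to 92705191 (50.7 kb, 4.71-fold). Per Mb, members held 0.0187 snRNA genes, all regions 0.0515 and the chromosomes 0.0400. No member held more than 2 long noncoding RNA genes, and apart from the 6H region no member held more than 1 snoRNA or snRNA gene.

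The distance to protein-coding genes was bounded from below by the rule. Members lay a median of 80.3 kb from the nearest such gene, with quartiles of 29.4 and 188 kb and a range of 0.189 to 1771 kb. In shorter gene-free regions the median was 73.5 kb. The gap from a member to the nearest greenscreen region had a median of 65.9 kb, and it was 70.8 kb for shorter gene-free regions.

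The list of VRS5 peaks held 99518 peaks on the 7 chromosomes. It is not independent of the greenscreen, since the peaks were called against the same GFP-FLAG libraries. No summit lay in a member, because the authors had removed peaks that overlapped greenscreen regions. In the 50 kb on either side of members there were 3384 summits in 122 Mb, or 27.6 per Mb (26.7 to 28.6). The density was 26.7 per Mb (26.5 to 27.0) beside shorter gene-free regions, 23.5 (22.2 to 24.9) beside long regions that touched a protein-coding gene, and 25.4 (25.2 to 25.5) over all sequence outside greenscreen regions. The flanks of members thus held VRS5 peaks about as densely as those of shorter gene-free regions, and more densely than those of long regions with genes.

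Close to the edge the density was higher. Within 1 kb of a member there were 130 summits, or 50.02 per Mb (41.8 to 59.4). It was 30.2 per Mb (27.0 to 33.8) between 1 and 5 kb, 26.3 between 5 and 20 kb, 27.2 (26.0 to 28.4) between 20 and 50 kb and 26.9 (26.0 to 27.9) between 50 and 100 kb. Beside shorter gene-free regions the corresponding values were 41.9 (39.8 to 44.2), 29.6, 26.3, 25.8 and 25.1. The rise within 1 kb was therefore not particular to long regions, and the intervals of both sets overlapped there. Beside long regions with a protein-coding gene it was 32.5 (22.5 to 45.5) within 1 kb.

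**Figure D5:**
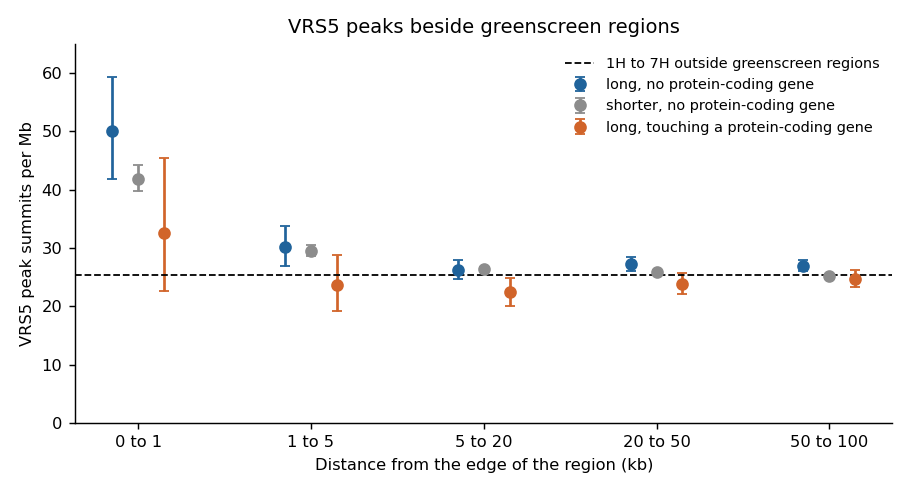
Density of VRS5 summits per Mb (vertical axis) in classes of distance from the edge of a region (horizontal axis, kb), for the long gene-free, long gene-touching and shorter gene-free regions, with 95% Poisson intervals. The class within 1 kb is the highest in each set, at 50.02 per Mb beside members and 41.9 beside shorter gene-free regions.

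The whole 50 kb flanks were also compared on both sides of the 50 Mb limit. Near the gene-poorest centre the flanks of members held 29.0 summits per Mb (27.3 to 30.8), and those of shorter gene-free regions 27.4 (26.8 to 27.99). Farther away they held 27.0 (26.0 to 28.2) and 26.6. Measured from each region, the nearest VRS5 peak lay at a median of 12.4 kb from a member, with quartiles of 3.85 and 27.6 kb, against 12.9 kb for shorter gene-free regions and 16.8 kb for long regions with genes. A peak within 1 kb was found for 138 members, or 10.6% (9.06 to 12.4), against 9.24% of shorter gene-free regions. At the other extreme, 25 of the 1300 members had no VRS5 peak within 100 kb. The same held for 319 of the 16871 shorter gene-free regions and 449 of all 20855 regions, so that the shares were close. The member farthest from a peak was the region at the tip of 6H.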

How the data were processed

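DAP-seq of 6 VRS5-FLAG and 6 GFP-FLAG libraries was analysed from 2 deposited lists, the greenscreen regions and the VRS5 peaks. Per the submitters' processing notes and the methods, the authors trimmed reads with Trimmomatic 0.39, mapped them to MorexV3 with BWA 0.7.17, pooled libraries by bait, and called peaks with MACS2 2.2.7.1 (genome size 5.4e9), keeping VRS5 peaks with q below 1e-10 after removing those on greenscreen regions with bedtools. The pileup signal of a VRS5 peak and the fold enrichment ratio of a region are as the authors deposited them, and p-values and q-values were deposited as -log10 values. The score that the authors deposited follows from the -log10 q and was not used. The background behind the greenscreen fold enrichment and the joining distance are not stated in the sources used here, and that background was worked back from the deposited fold enrichment and -log10 p under a Poisson tail, with 1 added to pileup and background.

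Overlap meant at least 1 shared base with a gene span of the RefSeq annotation of MorexV3. The last annotated or listed coordinate was taken as the length of each chromosome. The stand-in for the centromere was the centre of the 50 Mb window, moved by 1 Mb, with the fewest protein-coding gene starts; centromere coordinates were not used here. Shares have Wilson intervals and densities exact Poisson intervals, at 95%. No test was run. Counting was tested on simulated data. The members and gene lists were chosen with earlier results of these data known. Regions named were the 10 widest, the 10 with the highest fold enrichment, the member with most rRNA genes, the narrowest member and the widest gene-free region below the limit. All others named were chosen after their values were seen. Alternatives varied width, gene class, distance to genes, fold enrichment, the stand-in, the flank and the q threshold. Totals per library and genome sequence were not analysed here. Scripts ran under Python 3.11.15 with scipy 1.17.1, pandas 2.3.3 and numpy 2.4.6, and figures were drawn with matplotlib 3.10.9.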

Additional observations from a re-analysis of the deposited data

How the results depend on the processing

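Of 28 alternative values, 15 stayed within the counting interval of the value reported (for counts, within 1.5 times) and 13 moved. At a width of at least 20 kb there were 3040 gene-free regions with a median fold enrichment of 4.72, of which 3.42% touched an rRNA gene, tRNA gene or pseudogene. At 50 kb there were 215, with a median of 4.78, a share near the gene-poorest centre of 38.1%, a share touching such genes of 6.51%, and 26.7 VRS5 summits per Mb in the flanks. A fold enrichment of at least 5 left 282 members. With VRS5 peaks of q below 1e-20, flanks held 9.15 summits per Mb, against 8.38 beside all regions. Alternatives chosen after seeing the data gave 26.7% near the centre for all regions of 30 kb or more, and shares at 10-fold or more of 5.63% at 20 kb and 9.77% at 50 kb; without members within 20 Mb of a chromosome end that share was 5.77%. Windows of 20 and 100 Mb gave 30% and 30.5% near the centre, and chromosome midpoints 28.2%, against 20.2% of all regions. No paired analysis was possible because the pooled lists hold no value per library, and for the same reason no replicate could be left out. What depth limits was not tested. Distances rest on a stand-in for the centromere, and genes on RefSeq spans.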
